A study of Mus musculus with 12 samples.

Results

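Gene expression after a high-fat diet was compared with expression after a normal diet in islet samples from Sgpp2-/- mice of the C57BL6 strain, which lack a functional sphingosine-1-phosphate phosphatase 2 gene. The comparison uses 6 of the 12 arrays of the series. They are 3 Affymetrix arrays from knockout mice given high-fat food (KO high-fat) and 3 from knockout mice given normal food (KO normal), taken by their titles. The other 6 arrays, from wild type C57BL6 mice on high-fat food (WT high-fat, 3 arrays) and on normal food (WT normal, 3 arrays), enter the shared estimate of the spread and show where the knockout response differs. Both knockout groups carry the same deficiency, so a difference between them is a difference between diets within that genotype. Islets are named by the series title, whereas the labels give no tissue. The sources used here do not give the age or sex of the mice, the composition or length of the diets, how the knockout was made, or whether each array stands for its own animal. The p-values therefore measure how far these samples spread, in part perhaps for technical reasons. Every gene was followed through 1 probe set, the one with the highest mean over the 12 arrays among probe sets that name a single gene, and the 15237 of 18193 genes that exceeded 5 on the log2 scale on 3 or more arrays were tested.

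Sgpp2 encodes an endoplasmic reticulum enzyme that dephosphorylates sphingosine-1-phosphate, a signalling lipid, and so returns sphingosine to ceramide synthesis. Islets are clusters of endocrine cells in which β-cells make insulin, α-cells glucagon and δ-cells somatostatin, set among vessels and nerve fibres and surrounded by acinar tissue that makes digestive enzymes. A high-fat diet raises the demand for insulin, and rodent islets are known to answer it with higher secretion, with division of β-cells and, under strain, with endoplasmic reticulum stress.

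No single gene separated the KO high-fat from the KO normal arrays once the number of genes was taken into account. Of the 15237 genes, 0 had a Benjamini-Hochberg adjusted p under 0.05 in the limma fit (percent called 0), and the smallest adjusted p was 0.306. At an unadjusted p under 0.05, 544 genes had a higher mean in KO high-fat (3.57% of the genes tested) and 629 had a lower mean (4.13%). Together these are 1173 genes, against 762 that a threshold of 0.05 gives by chance. The 3 KO high-fat values all lay above the 3 KO normal values in 963 genes (6.32%) and all lay below them in 1022 genes (6.71%). Differences of more than 2-fold with an unadjusted p under 0.05 were found in 61 genes, 35 with the higher mean in KO high-fat and 26 with the lower. Without the third KO normal array the counts at an unadjusted p under 0.05 were 350 higher and 406 lower. Genes below are described as having a higher or lower mean, since none passed the adjusted test. A log2 difference is the KO high-fat mean minus the KO normal mean of log2 values, with its standard error (SE) from the limma fit.

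**Figure D1:**
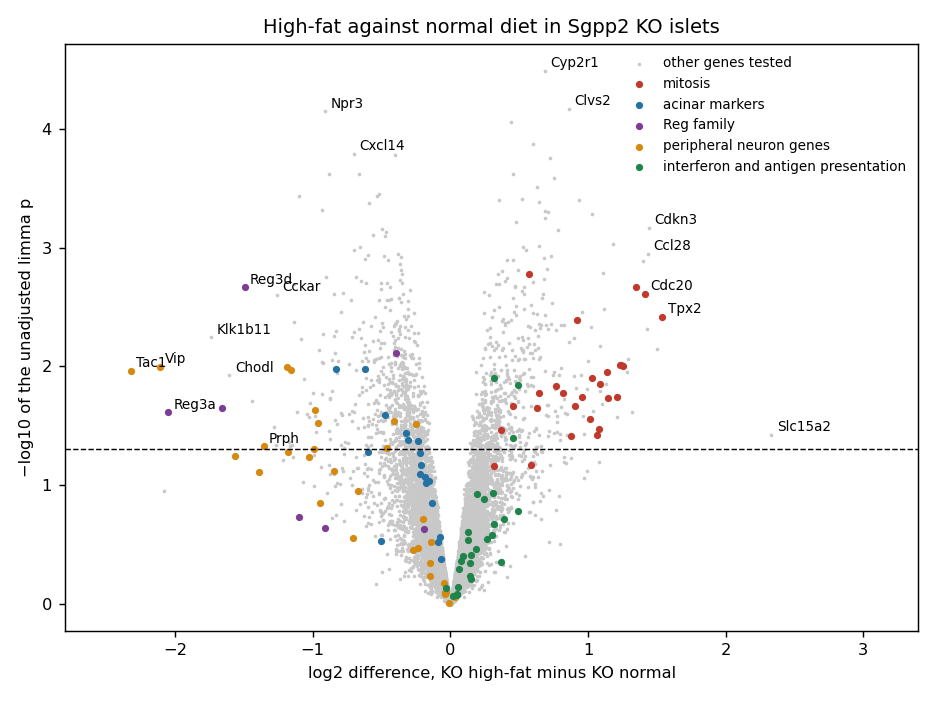
Log2 difference between KO high-fat and KO normal arrays (x axis) against −log10 of the unadjusted p of the limma test (y axis) for the 15237 genes tested, 1 point per gene, with the genes of largest difference and smallest p labelled. Mitosis genes lie on the right and peptide, nerve and Reg genes on the left, and the smallest adjusted p of any point is 0.306.

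The arrays carried the transcripts of islets at the top of their range. Ins2, which encodes insulin, had log2 values of 14.52, 14.70 and 14.36 in KO high-fat, against 14.47, 14.60 and 14.51 in KO normal, and Gcg, Sst and Ppy were likewise above 14 on every knockout array. Acinar enzyme transcripts were bright as well, with a mean over 19 markers of 12.73 to 12.79 in KO high-fat and 12.83 to 13.15 in KO normal. Sgpp2 itself measured 11.12, 11.11 and 11.02 in KO high-fat, against 11.03, 11.17 and 10.99 in KO normal, with a log2 difference of 0.02 (SE 0.07, 95% confidence interval −0.14 to 0.18). The probe set was lower on each of the 6 knockout arrays than on each of the 6 wild type arrays, where it lay between 11.46 and 11.63. The sources used here do not say which part of the gene was deleted, so the probe set is a limited check of the labels. Correlations between arrays of a knockout or wild type group ran from 0.9912 to 0.9959. In a principal component analysis of the 6 knockout arrays, the first component took up 34.1% of the variance and placed the third KO high-fat array at −26.4, against 1.2 and −7.9 for its group mates and between 8.4 and 14.5 for the KO normal arrays. Named genes with a difference over 0.2 in size that moved by over 1.5 times without this array are given with and without it. Among list medians this is done for the mitosis, DNA replication and interferon lists.

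Mitosis genes had the largest median difference toward KO high-fat of the gene lists examined. All 27 tested genes of the list had a higher mean in KO high-fat (48.1% of all genes did), 25 of them at an unadjusted p under 0.05 (3.57% of all genes) and 24 without overlap between the diets (6.32% of all genes). The median log2 difference was 1.01, against a median absolute difference of 0.0863 over all genes, and the range ran from 0.32 for Aurka, named after the values were seen as the end of the range, to 1.54 for Tpx2. No member passed the adjusted test, and the smallest adjusted p in the list was 0.408. In whole-islet samples of this kind, more cells of a type and more RNA per cell cannot be told apart.

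Tpx2, which assembles the spindle and activates Aurora A kinase, had log2 values of 8.77, 9.25 and 10.64 in KO high-fat, against 7.95, 7.88 and 8.21 in KO normal. The log2 difference was 1.54 (SE 0.42, adjusted p = 0.452 by limma), a further probe set above the filter gave 1.09, and the mean of all 4 probe sets, dim ones included, gave 0.31. Cdc20, the activator of the anaphase-promoting complex, had 8.14, 8.59 and 9.39 in KO high-fat, against 6.98, 7.30 and 7.59 in KO normal, a log2 difference of 1.42 (SE 0.36, adjusted p = 0.408). The KO high-fat and KO normal arrays did not overlap in either gene, and the third KO high-fat array was the highest. Ube2c, the ubiquitin-conjugating enzyme that works with the same complex, had 7.58, 8.22 and 9.03 in KO high-fat, against 7.0, 6.69 and 7.10 in KO normal. Bub1, a kinase of the spindle checkpoint, had 6.76, 7.37 and 8.51 in KO high-fat, against 6.02, 6.43 and 6.44 in KO normal. Cenpf, a kinetochore protein, had 7.14, 7.62 and 8.74 in KO high-fat, against 6.74, 6.48 and 6.54 in KO normal. In these 3 genes the first KO high-fat array was nearest to KO normal and the third was the highest, without overlap. Mki67, the common marker of dividing cells, had 9.05, 10.09 and 11.09 in KO high-fat, against 8.76, 9.15 and 9.09 in KO normal, so that its first KO high-fat array lay among the KO normal arrays. Its log2 difference was 1.08 (SE 0.45, adjusted p = 0.602). Without the third KO high-fat array the difference was 0.997 for Tpx2, 0.77 for Bub1, 0.79 for Cenpf and 0.58 for Mki67.

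Genes outside the list with roles at the end of the cell cycle were also among the 12 largest differences toward KO high-fat. Cdkn3, a phosphatase that acts on cyclin-dependent kinases, had 6.63, 7.30 and 8.10 in KO high-fat, against 5.92, 5.93 and 5.85 in KO normal, and the log2 difference was 1.44 (SE 0.31, adjusted p = 0.362). The log2 difference was 1.5 for Cep55, which acts in the last step of cell separation, 1.40 for the checkpoint kinase Ttk, 1.32 for the spindle protein Hmmr and 1.28 for the spindle pole protein Aspm. Without the third KO high-fat array it was 0.885 for Cep55, 0.75 for Hmmr and 0.73 for Aspm. Within the mitosis list, Kif20a, a kinesin of cytokinesis, had a smaller difference of 0.57 with an adjusted p of 0.408. Further probe sets of the mitosis genes that passed the filter gave the same direction in 16 of 16 cases, 10 of them at an unadjusted p under 0.05.

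The size of the mitosis difference depended on single arrays. The mean level of the 27 genes was 7.61, 8.04 and 8.93 on the KO high-fat arrays, against 7.10, 7.28 and 7.35 on the KO normal arrays. The KO high-fat and KO normal arrays did not overlap, and the KO high-fat arrays were spread more widely. Without the third KO high-fat array the median difference was 0.565 and 10 genes had an unadjusted p under 0.05, and without the first it was 1.34 with 26 genes. Without the first KO normal array it was 0.910 with 15 genes. Over all genes, 461, 572 and 598 had a higher mean at that threshold in those fits, in the same order. In wild type mice the mean level was 7.70, 7.94 and 7.59 on the high-fat arrays, against 8.09, 7.22 and 7.23 on the normal arrays, with a median difference of 0.22. There the first WT normal array was the highest of the 6 wild type arrays. In the list, 2 genes had an unadjusted interaction p under 0.05 (4.97% of all genes in either direction). The smallest adjusted interaction p was 0.982. The difference between the diet responses of the genotypes had a median of 0.765 over the list. That median was 0.407 without the first WT normal array, 0.349 without the third KO high-fat array and 1.12 without the first, so the mitosis response is not shown to differ between knockout and wild type mice.

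**Figure D2:**
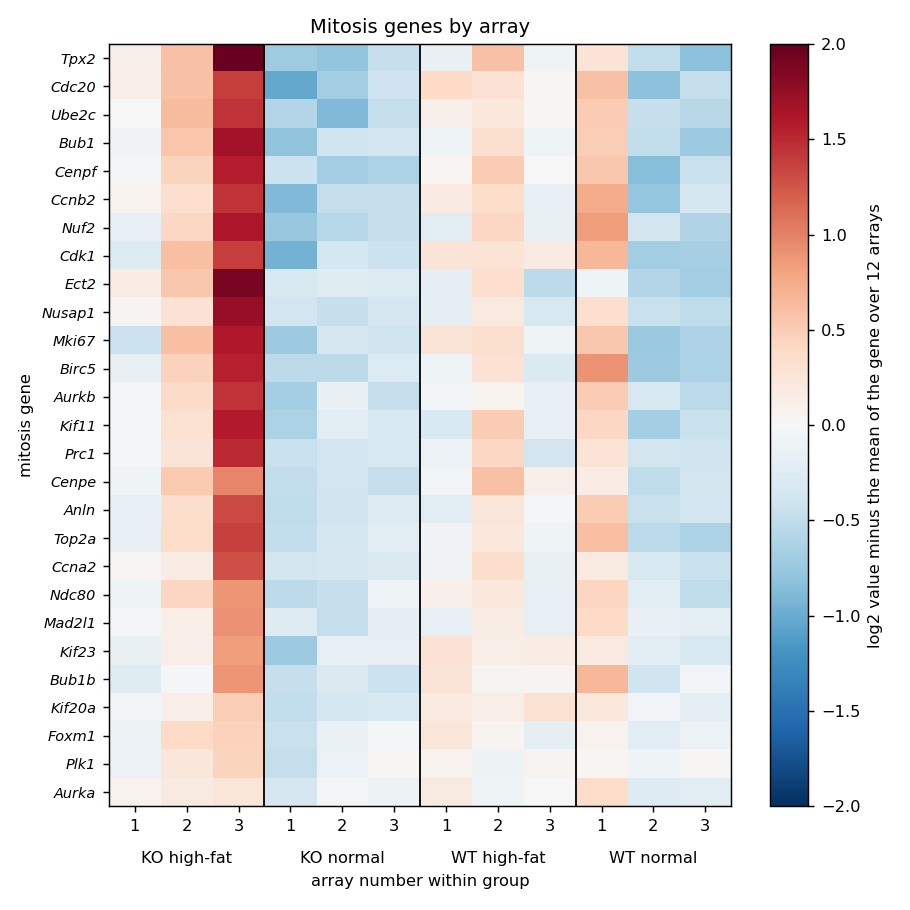
Log2 expression of the 27 mitosis genes (rows) on the 12 arrays (columns), each gene shown as its deviation from its mean over the arrays, with the groups in the order KO high-fat, KO normal, WT high-fat and WT normal. The third KO high-fat array is the highest for most genes, and the mean over the list is 7.61 to 8.93 in KO high-fat and 7.10 to 7.35 in KO normal.

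Promoters of mitosis genes are known to hold a CHR element (cell-cycle homology region), which recruits the DREAM and MuvB complexes, together with CCAAT boxes bound by NF-Y. The sequences below show both sets of letters in genes described above. They run from 200 bases before to 10 bases after the transcription start, 5′ to 3′ on the strand of the gene, from RefSeq on GRCm38.p6, with TTTGAA or its reverse complement TTCAAA and CCAAT or its reverse complement ATTGG in capitals. Cdc20 lies at chr4:118437334-118437543, minus strand, Cenpf at chr1:189688077-189688286, minus strand, Mki67 at chr7:135716370-135716579, minus strand, and Bub1 at chr2:127831850-127832059, minus strand. Bub1 is shown because it has CCAAT boxes and no CHR letters in its window.
Cdc20: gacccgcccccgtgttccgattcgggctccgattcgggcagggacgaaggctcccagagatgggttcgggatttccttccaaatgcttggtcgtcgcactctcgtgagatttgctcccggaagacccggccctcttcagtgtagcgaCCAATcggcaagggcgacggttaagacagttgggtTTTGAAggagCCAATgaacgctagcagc
Cenpf: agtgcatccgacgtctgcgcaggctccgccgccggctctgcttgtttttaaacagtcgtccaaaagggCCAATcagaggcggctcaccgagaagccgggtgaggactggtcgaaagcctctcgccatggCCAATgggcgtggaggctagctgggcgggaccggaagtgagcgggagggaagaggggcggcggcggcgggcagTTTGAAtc
Mki67: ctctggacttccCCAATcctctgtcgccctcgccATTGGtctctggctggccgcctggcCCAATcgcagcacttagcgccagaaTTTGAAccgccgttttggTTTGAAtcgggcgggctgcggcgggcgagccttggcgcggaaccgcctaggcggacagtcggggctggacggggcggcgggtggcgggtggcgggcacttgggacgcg
Bub1: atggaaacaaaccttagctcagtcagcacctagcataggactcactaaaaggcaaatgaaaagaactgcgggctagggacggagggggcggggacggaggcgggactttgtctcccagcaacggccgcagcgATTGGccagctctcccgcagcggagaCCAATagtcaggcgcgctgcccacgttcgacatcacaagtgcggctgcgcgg

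Over windows of 300 bases, from 250 before to 50 after the start, the CHR letters were found in 16 of the 22 mitosis genes with a promoter in the table (72.73%), against 14.45% of the 12181 tested genes with one. CCAAT letters were found in 72.73% of the mitosis genes, against 41.97% of the tested genes, and both kinds in 63.64%, against 5.71%. Among the 22 DNA replication genes with a promoter, the CHR letters were in 3 (13.64%) and the CCAAT letters in 59.09%. Both strands were searched, matches of different motifs may share bases, the motifs were chosen after the expression values were seen, and a match in letters is a description and not a measured binding site. Tpx2 and Kif20a had no promoter in the table.

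Genes of DNA replication had a smaller median difference than those of mitosis. Of 27 tested genes, 23 had a higher mean in KO high-fat (48.1% of all genes), 1 of them at an unadjusted p under 0.05 (3.57% of all genes), and the median log2 difference was 0.194. That gene was Chaf1b, a subunit of the chromatin assembly factor, with 7.30, 7.31 and 7.27 in KO high-fat, against 6.74, 6.85 and 6.94 in KO normal, a log2 difference of 0.45 (SE 0.19, adjusted p = 0.607). Uhrf1, which keeps DNA methylation through replication, had a difference of 0.67 with an adjusted p of 0.695 (0.23 without the third KO high-fat array), and the origin licensing factor Cdt1 had 0.44 with an adjusted p of 0.755. The mean level of the list was 8.44, 8.62 and 8.92 in KO high-fat, against 8.43, 8.48 and 8.51 in KO normal, so the first KO high-fat array lay within the KO normal arrays. With the replicate numbers as a block, 5 genes had a higher mean at an unadjusted p under 0.05 (4.9% of all genes in that fit), and without the third KO high-fat array the median was 0.0678. In wild type mice the median was −0.205.

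Among 17 G1 cyclins and inhibitors of cyclin-dependent kinases, 1 had an unadjusted p under 0.05 (7.7% of all genes in either direction). It was Cdkn1a, which encodes the inhibitor p21, with 11.12, 10.99 and 11.09 in KO high-fat, against 10.64, 10.55 and 10.73 in KO normal. Its log2 difference was 0.42 in knockout mice (SE 0.15, adjusted p = 0.527) and 0.75 in wild type mice. There was no overlap between the diets. The median of the list was 0.068.

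The largest differences toward lower expression in KO high-fat, among genes with an unadjusted p under 0.05 and no overlap, were in the neuropeptide genes Tac1 and Vip. Tac1, which encodes substance P, had log2 values of 7.73, 7.27 and 8.70 in KO high-fat, against 11.76, 9.26 and 9.64 in KO normal. The KO high-fat and KO normal arrays did not overlap, and the log2 difference was −2.32 (SE 0.76, adjusted p = 0.503). Vip, which encodes vasoactive intestinal peptide, had 9.77, 9.01 and 10.72 in KO high-fat, against 12.87, 11.22 and 11.75 in KO normal, a log2 difference of −2.11 (SE 0.68, adjusted p = 0.502). The first KO normal array was the highest for both peptides. Wild type mice gave differences of the same sign, −2.78 for Tac1 and −2.47 for Vip. Without the first KO normal array the Tac1 difference was −1.55. Next in size were Reg3a, Klk1b11, Chodl and Reg3d, whose values are given with their families.

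Other genes of neurons had differences of smaller size. Prph, the intermediate filament peripherin of peripheral nerves, had 8.47, 7.33 and 8.73 in KO high-fat, against 9.61, 9.32 and 9.68 in KO normal, a log2 difference of −1.36 (SE 0.61, adjusted p = 0.637), and 3 further probe sets gave −0.60 to −0.14. The differences were −1.44 for the neuronal potassium channel Kcnq5, −1.28 for the vesicle protein Nsg2, −1.19 for the developmental regulator Mab21l2 and −1.17 for the calcium sensor Hpcal4. Each was without overlap between the diets, and the second KO high-fat array was the lowest in all 5 genes. Without that array the difference was −0.95 for Kcnq5, −0.835 for Nsg2 and −0.76 for Hpcal4.

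A list of 34 peripheral neuron genes was drawn up after these values were seen. It includes genes already named above for their low means, among them Tac1 and Prph. Its counts therefore describe these data and are not separate evidence. Of 31 tested, 30 had a lower mean in KO high-fat (51.9% of all genes), 11 at an unadjusted p under 0.05 (4.13% of all genes) and 16 without overlap (6.71% of all genes), with a median of −0.668 in knockout and −0.748 in wild type mice. Gal, which encodes galanin and is named from this list, had 9.49, 9.32 and 9.17 in KO high-fat, against 11.12, 10.70 and 9.62 in KO normal. Its log2 difference was −1.15, and that of Npy, which encodes neuropeptide Y, was −0.98. The neuronal nitric oxide synthase Nos1 had −1.18 (−0.78 without the second KO high-fat array) and the nicotinic receptor subunit Chrnb4 had −0.99. The mean level of the list was 8.05, 7.55 and 8.21 in KO high-fat, against 8.92, 8.38 and 8.62 in KO normal. The median was −0.435 without the second KO high-fat array. The count of 11 was 4 without the first KO normal array and 6 without the third KO normal array or without the second KO high-fat array. Over all genes, 679, 406 and 607 had a lower mean at that threshold without those arrays, in the same order. Of 8 markers of Schwann cells and glia, which ensheath nerve fibres, 5 had a lower mean (51.9% of all genes). None had an unadjusted p under 0.05, and the median was −0.256. Their mean level was 7.99, 7.84 and 8.01 in KO high-fat, against 8.24, 8.09 and 8.13 in KO normal. The part of nerve tissue in the samples in the neuropeptide differences was not tested.

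The regenerating islet-derived (Reg) genes, secreted lectins of acinar and endocrine cells under injury or growth, all had a lower mean in KO high-fat. Of 7 tested, 4 had an unadjusted p under 0.05 (4.13% of all genes were lower at that threshold) and 3 did not overlap (6.71% of all genes), with a median log2 difference of −1.10 in knockout and −1.37 in wild type mice. Reg3a had 6.10, 5.57 and 5.52 in KO high-fat, against 9.22, 7.43 and 6.69 in KO normal, a log2 difference of −2.05 (SE 0.79, adjusted p = 0.564), or −1.33 without the first KO normal array. Reg3d had 10.24, 10.00 and 10.36 in KO high-fat, against 12.22, 12.02 and 10.84 in KO normal, a log2 difference of −1.49 (SE 0.38, adjusted p = 0.408). Neither gene overlapped between the diets. Reg2 had 11.69, 10.09 and 10.44 in KO high-fat, against 13.37, 12.64 and 11.19 in KO normal, with overlap and a log2 difference of −1.66, and Reg1 had −0.39 without overlap. In wild type mice the Reg2 difference was −4.19 with an adjusted p of 0.0444, and the difference between the genotypes, 2.53, had an adjusted p of 0.922. Members of the family are close in sequence, so probe sets may read more than 1 of them. The family median was −0.425 without the first KO normal array and −1.79 without the third.

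Acinar markers also had lower means in KO high-fat. All 19 tested had a lower mean in KO high-fat (51.9% of all genes), 6 at an unadjusted p under 0.05 (4.13%) and 13 without overlap (6.71%), with a median of −0.222 in knockout and −0.031 in wild type mice. Gp2, the major membrane protein of zymogen granules, had 12.19, 11.93 and 11.83 in KO high-fat, against 13.08, 13.08 and 12.29 in KO normal, a log2 difference of −0.83 (SE 0.27, adjusted p = 0.502). Rbpjl, an acinar transcription factor, had a difference of −0.62 with an adjusted p of 0.502. The lipase-related Pnliprp2 had −0.48 and the elastase Cela2a had −0.32. Cckar, the receptor through which cholecystokinin drives enzyme secretion in mouse acinar cells, had 9.41, 9.15 and 9.73 in KO high-fat, against 10.90, 10.94 and 10.22 in KO normal. Its log2 difference was −1.26 (SE 0.32, adjusted p = 0.408), without overlap. The third KO normal array was the lowest of its group for Reg3d, Gp2 and Cckar, and it also had the lowest acinar mean of that group, 12.83. The part of acinar tissue in the Reg and Cckar differences was not tested. Without the third KO normal array 11 acinar genes had an unadjusted p under 0.05, and without any other of the knockout arrays between 2 and 5 did. Over all genes, 406 had a lower mean at that threshold without the third KO normal array. Without any other knockout array, 495 to 691 did.

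Klk1b11, a serine protease of the tissue kallikrein family, had 6.27, 5.60 and 4.93 in KO high-fat, against 8.10, 7.37 and 6.54 in KO normal, a log2 difference of −1.74 (SE 0.51, adjusted p = 0.464). The diets did not overlap. Kallikrein genes are a family of near copies, so the probe set may read several. Chodl, a membrane protein with a C-type lectin domain, had a difference of −1.60 with an adjusted p of 0.503.

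The largest named difference toward KO high-fat was in Slc15a2, the proton-coupled peptide transporter PEPT2. Its log2 values were 10.30, 10.52 and 10.56 in KO high-fat, against 6.50, 8.59 and 9.29 in KO normal, a log2 difference of 2.33 (SE 0.99, adjusted p = 0.603). The KO high-fat arrays were close together while the KO normal arrays spread widely, as did the wild type arrays, at 9.82, 7.10 and 10.48 on the high-fat diet, against 6.28, 9.13 and 9.16 on the normal diet. Without the first KO normal array the difference was 1.52, and a further probe set of the gene gave −0.06.

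Ccl28, a chemokine of mucosal epithelia, had 10.02, 10.56 and 11.06 in KO high-fat, against 9.53, 8.95 and 8.86 in KO normal, without overlap. The log2 difference was 1.44 (SE 0.33, adjusted p = 0.391), and 2 further probe sets gave 0.49 and 0.76. In wild type mice the values were 10.33, 9.41 and 9.13 on the high-fat diet, against 10.24, 9.75 and 9.74 on the normal diet, a difference of −0.28. The difference between the genotypes was 1.72, with an adjusted p of 0.854.

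**Figure D3:**
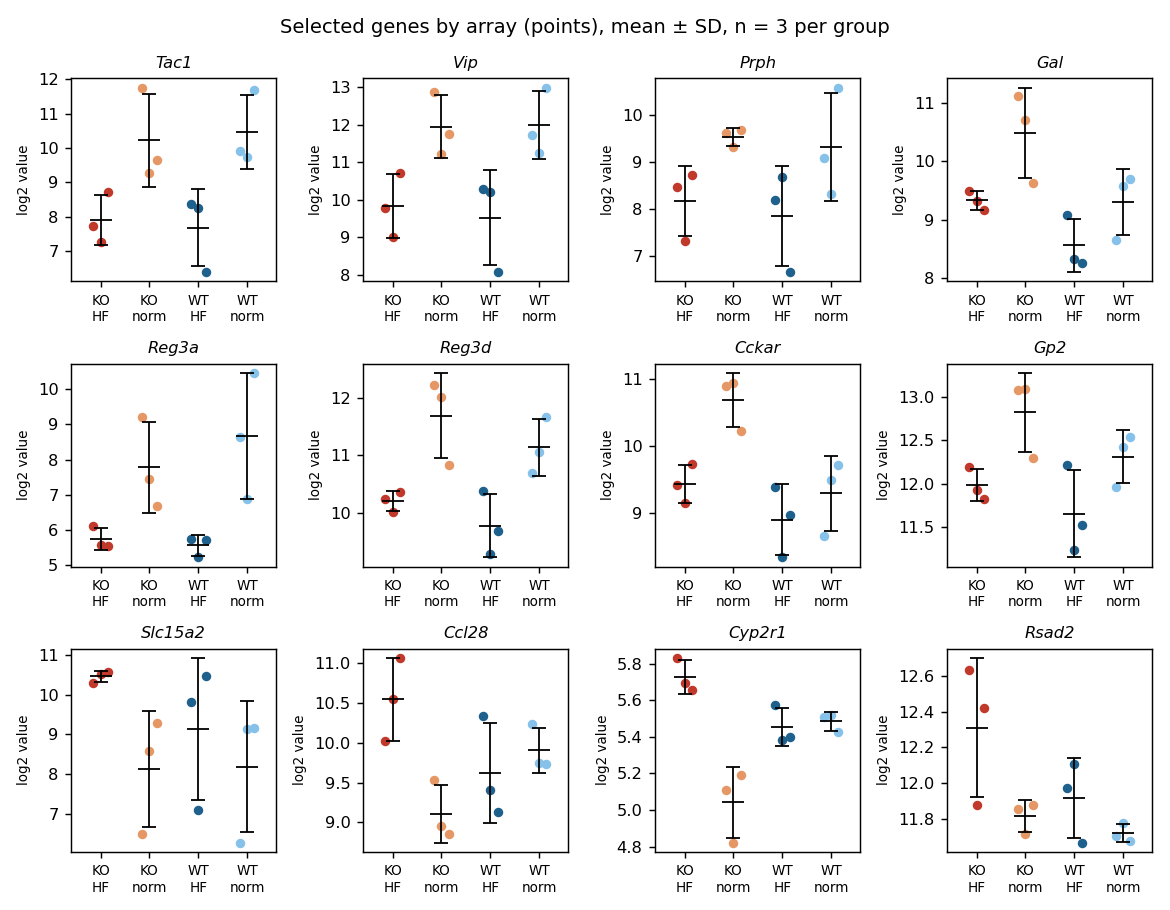
Log2 expression of 12 genes by array, 1 panel per gene, with the groups from left to right KO high-fat, KO normal, WT high-fat and WT normal, points for arrays and bars for group means. Tac1 lies at 7.27 to 8.70 in KO high-fat and 9.26 to 11.76 in KO normal, whereas Ccl28 lies at 10.02 to 11.06 in KO high-fat and 8.86 to 9.53 in KO normal.

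The genes with the smallest p-values differed by less than 1 log2 unit but varied little between arrays. Cyp2r1, a microsomal hydroxylase of vitamin D, had 5.83, 5.69 and 5.65 in KO high-fat, against 5.11, 4.82 and 5.19 in KO normal. The KO high-fat and KO normal arrays did not overlap, the log2 difference was 0.69 (SE 0.10, adjusted p = 0.306), and the values lie close to the filter at 5. In wild type mice the Cyp2r1 difference was −0.03, and the difference between the genotypes was 0.72, with an adjusted p of 0.722. Inpp4b, a phosphoinositide phosphatase, had 7.64, 7.69 and 7.99 in KO high-fat, against 7.14, 7.17 and 7.21 in KO normal. Its difference was 0.60 in knockout and 0.37 in wild type mice. Clvs2, a lipid-binding protein of clathrin-coated vesicles, had a difference of 0.86.

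Lower means with p-values in the same range were found for Npr3, the clearance receptor of natriuretic peptides (−0.91), and Cxcl14, a chemokine (−0.70). The imprinted gene Mest (−0.40) and the serine protease gene Klk6 (−0.66) belong with them. Cxcl14 had 4.73, 4.80 and 4.79 in KO high-fat, against 5.49, 5.33 and 5.61 in KO normal, and −0.78 in wild type mice. Mest had 9.94, 9.99 and 10.09 in KO high-fat, against 10.39, 10.46 and 10.37 in KO normal. All of these genes had an adjusted p of 0.306 and no overlap between the diets. Npr3, Cxcl14, Klk6 and Clvs2 were near the filter on dim genes, where array values understate differences.

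Interferon-stimulated and antigen presentation genes had small differences in one direction. Of 27 tested, 26 had a higher mean in KO high-fat (48.1% of all genes), 3 at an unadjusted p under 0.05 (3.57%) and 8 without overlap (6.32%), with a median of 0.152 in knockout and 0.013 in wild type mice. Rsad2, the antiviral protein viperin, had 12.63, 11.88 and 12.42 in KO high-fat, against 11.86, 11.72 and 11.88 in KO normal, a log2 difference of 0.49 (SE 0.17, adjusted p = 0.516). Usp18, which removes the ubiquitin-like modifier ISG15, had 0.31, and the immunoproteasome subunit Psmb9 had 0.46 (0.30 without the second KO high-fat array). The mean level of the list was 9.38, 9.13 and 9.04 in KO high-fat, against 9.01, 8.87 and 9.05 in KO normal, with overlap. Of 18 further probe sets, 13 had the same direction. The median was 0.0814 without the first KO high-fat array and 0.257 without the third, and with the replicate numbers as a block 8 genes had a higher mean at an unadjusted p under 0.05, against 4.9% of all genes in that fit.

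Interferon-stimulated genes carry the ISRE, to which ISGF3 binds. GAAA followed after any 2 bases by GAAA, or on the other strand TTTC followed after any 2 bases by TTTC, was found in 10 of 21 genes of the list with a promoter (47.62%), against 3.59% of the tested genes. Of the genes named above, Psmb9 had no match in the window read, and Usp18 had no promoter in the table. The Rsad2 promoter lies at chr12:26456443-26456652, minus strand on GRCm38.p6 from RefSeq. It is shown from 200 bases before to 10 bases after its start with the match in capitals.
Rsad2: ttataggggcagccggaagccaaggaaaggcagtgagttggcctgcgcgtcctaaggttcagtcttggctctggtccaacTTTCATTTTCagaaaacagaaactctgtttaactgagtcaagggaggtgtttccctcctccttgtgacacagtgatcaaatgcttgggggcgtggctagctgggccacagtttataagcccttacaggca

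The endocrine identity of the islets differed little between the diets. Of 25 tested genes of β-cell identity, 1 had an unadjusted p under 0.05 (7.7% of all genes in either direction). It was the imprinted gene Nnat with a log2 difference of 0.36, and the median of the list was 0.026. Of 11 genes of α-, δ- and PP-cells, 0 had an unadjusted p under 0.05. The differences of the hormone genes were 0.00 for Ins2 (95% confidence interval −0.21 to 0.22), 0.06 for Gcg, −0.01 for Sst, −0.04 for Ppy and 0.04 for Iapp, which encodes amylin. RMA values near the top of the scale can be compressed, so equal values there are a weak measure of hormone transcripts. Slc2a2, the glucose transporter of mouse β-cells, had −0.09, and Ucn3, a marker of mature mouse β-cells, had −0.01. Of 23 genes of exocytosis and calcium handling, Atp2a3, a calcium pump of the endoplasmic reticulum, had 0.29 (SE 0.09, adjusted p = 0.475). Syt7, a calcium sensor of granule release, had 12.56, 12.38 and 12.49 in KO high-fat and a log2 difference of −0.29 (SE 0.07, adjusted p = 0.408). The 3 further probe sets of Syt7 gave −0.17 to −0.05, and the mean of its probe sets gave −0.15. Of 19 genes that β-cells normally keep silent or gain on dedifferentiation, 1 had an unadjusted p under 0.05 (7.7% of all genes). It was the ornithine aminotransferase gene Oat, with −0.46. With the replicate numbers as a block, 5 had a lower mean at that threshold (6.18% of all genes in that fit).

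Endoplasmic reticulum stress is named in the title of the series. Of 25 tested genes of the unfolded protein response, 15 had a higher mean in KO high-fat (48.1% of all genes). The median was 0.055 in knockout and 0.074 in wild type mice. At an unadjusted p under 0.05, 3 were higher (3.57% of all genes) and 0 lower (4.13%). The 3 were Trib3, a pseudokinase downstream of ATF4, with 9.59, 8.69 and 9.18 in KO high-fat, against 8.47, 8.35 and 8.52 in KO normal, the stress sensor Sesn2 and the membrane-bound transcription factor Creb3. Their log2 differences were 0.71 for Trib3 (SE 0.28, adjusted p = 0.565), 0.24 for Sesn2 and 0.18 for Creb3. Hspa5, the chaperone BiP, had −0.08 (adjusted p = 0.909), and Ddit3, which encodes CHOP, had 0.17 (adjusted p = 0.867). The 2 further probe sets of Hspa5 gave −0.74 and −0.04, 1 of them at an unadjusted p under 0.05. The mean of the Hspa5 probe sets gave −0.29. Of 36 chaperone, folding and degradation genes, 1 had an unadjusted p under 0.05 (7.7% of all genes in either direction). It was the disulfide reductase gene Dnajc10 with −0.24, and the median of the list was −0.006.

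Lists of lipid and energy metabolism had few genes at an unadjusted p under 0.05. Ppargc1a, the coactivator PGC-1α of mitochondrial genes, had 9.17, 8.53 and 8.60 in KO high-fat, against 8.19, 7.92 and 8.31 in KO normal. Without overlap between the diets, the log2 difference was 0.63 in knockout (SE 0.23, adjusted p = 0.561) and 1.25 in wild type mice. Of 30 genes of fatty acid oxidation and PPAR targets, 17 had a higher mean (48.1% of all genes). At an unadjusted p under 0.05, Ppargc1a was the 1 gene with a higher mean (3.57% of all genes). Plin4, a coat protein of lipid droplets (−0.28), was the 1 gene with a lower mean at that threshold (4.13%). The count of 1 higher gene was 4 with the replicate numbers as a block (4.9% of all genes in that fit). With array weights it was 6, where 716 of all genes were higher. Of 23 lipogenic genes, 3 desaturase and carboxylase genes had a lower mean at that threshold (4.13% of all genes), Scd1 (−0.55), Acacb (−0.53) and Fads2 (−0.43), and the phosphatidate phosphatase gene Lpin1 had a higher mean (0.24). Scd1 had 10.69, 10.23 and 10.73 in KO high-fat, against 11.47, 10.84 and 10.98 in KO normal, and −0.75 in wild type mice. Without the first KO normal array the Scd1 difference was −0.36. The 2 further probe sets of Fads2 gave −0.07 and −0.06. Of 21 cholesterol synthesis genes and 28 genes of oxidative phosphorylation, 0 had an unadjusted p under 0.05, and the differences of the oxidative phosphorylation genes ranged from −0.083 to 0.070. The cholesterol synthesis genes had a higher mean in 15 of 21 cases (48.1% of all genes), with a median of 0.069 in knockout and 0.065 in wild type mice, where 14 were higher. Of 19 glycolytic genes, 15 had a lower mean in KO high-fat (51.9% of all genes) and 4 were lower without overlap (6.71%). The median was −0.091 in knockout and −0.053 in wild type mice, and leaving out 1 array gave −0.147 to 0.029 in knockout mice. The mean level of the list was 11.06, 10.94 and 10.81 in KO high-fat, against 11.07, 11.04 and 11.01 in KO normal, with overlap. The glucose transporter gene Slc2a1 (−0.26) was the 1 glycolytic gene with an unadjusted p under 0.05 (4.13%), a count of 4 with the replicate numbers as a block (6.18% of all genes in that fit).

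Of 23 antioxidant genes, 2 had a higher (3.57% of all genes) and 2 a lower mean (4.13%) at an unadjusted p under 0.05. Gpx2, a glutathione peroxidase of epithelia, had 10.16, 10.37 and 10.46 in KO high-fat, against 9.41, 9.77 and 9.68 in KO normal, a log2 difference of 0.71 (SE 0.15, adjusted p = 0.318). Hmox1, heme oxygenase, had 0.46 (0.23 without the third KO high-fat array), the glutathione transferase Gsta3 had −0.51 and catalase, Cat, had −0.31. Igf1, the insulin-like growth factor, had 8.42, 8.22 and 8.23 in KO high-fat, against 9.49, 9.58 and 8.57 in KO normal, without overlap. Its log2 difference was −0.92 (SE 0.27, adjusted p = 0.459). The binding proteins Igfbp5 (−0.51) and Igfbp3 (−0.29) were the other members of the 20 insulin and IGF genes with an unadjusted p under 0.05, 3 in all (4.13% of all genes), a count of 5 with the replicate numbers as a block (6.18% of all genes in that fit). A further probe set of Igfbp3 gave −0.03, and the mean of its probe sets gave −0.16. Of 14 genes of the serotonin and prolactin axis, which acts on β-cell growth in pregnant mice, 13 had a lower mean in KO high-fat (51.9% of all genes) and 3 were lower without overlap (6.71%), with a median of −0.126 in knockout and −0.124 in wild type mice, where 12 were lower. The serotonin receptor Htr1d (−0.51) was the 1 gene of these with an unadjusted p under 0.05 (4.13%). Tph1 was below the filter, and Prlr and Fev were not named on the array. The counts therefore do not cover the prolactin receptor gene Prlr or Tph1. Of 35 genes of sphingolipid metabolism and S1P signalling, 1 had an unadjusted p under 0.05 (7.7% of all genes in either direction). It was the dihydroceramide desaturase gene Degs2 with 0.33 (SE 0.13, adjusted p = 0.576), and the median of the list was −0.012.

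Among inflammatory genes, 1 of 18 had an unadjusted p under 0.05 (7.7% of all genes in either direction). Il1b, which encodes interleukin 1β, had 7.72, 7.60 and 7.65 in KO high-fat, against 7.02, 7.41 and 7.31 in KO normal, a log2 difference of 0.41 (SE 0.13, adjusted p = 0.503). Of 16 macrophage, 11 T and NK cell and 15 fibroblast and pericyte markers, 0 had an unadjusted p under 0.05 in either direction. Of 16 endothelial markers, 13 had a higher mean in KO high-fat (48.1% of all genes), with a list median of 0.053. Only 1 had an unadjusted p under 0.05 (7.7% of all genes), the adhesion molecule Pecam1, with a log2 difference of 0.52. Of 13 duct markers, 3 had an unadjusted p under 0.05 (7.7% of all genes in either direction), the mucin Muc1 (−0.87), the carbonic anhydrase Car2 (−0.39) and the bicarbonate transporter Slc4a4 (0.32). Of 4 further probe sets of Slc4a4, 1 had an unadjusted p under 0.05 in the opposite direction (−0.37), the mean of its probe sets gave 0.04, and the difference was 0.50 without the first and 0.21 without the second KO normal array. The B-cell receptor component Cd79a had −0.77 (−0.37 without the third KO high-fat array). Of its list of 6 B and plasma cell markers, 3 had a lower mean (51.9% of all genes), and the list median was 0.098. Car3, a carbonic anhydrase of adipocytes, had 0.53. Of its list of 5 adipocyte markers, 3 had a lower mean, and the list median was −0.0009. Each was the 1 gene of its list with an unadjusted p under 0.05 (7.7% of all genes in either direction). Extracellular matrix genes gave 0 of 26 at an unadjusted p under 0.05 and a median of −0.040 in knockout mice, whereas in wild type mice 9 had a lower mean at that threshold (7.22% of all genes did) and the median was −0.319. The interaction test called 0 genes, so that contrast is not shown to be a difference between genotypes. The immediate early gene Egr4 (−0.41) and the pro-apoptotic gene Bmf (−0.40) were each the 1 gene of their list with an unadjusted p under 0.05. Their lists had 23 and 20 tested genes (7.7% of all genes passed in either direction). The 2 further probe sets of Bmf gave −0.03 and 0.13, and the mean of its probe sets gave −0.10. With probe sets averaged, 0 genes of the Bmf list passed. Of 18 circadian genes, 0 passed.

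**Figure D4:**
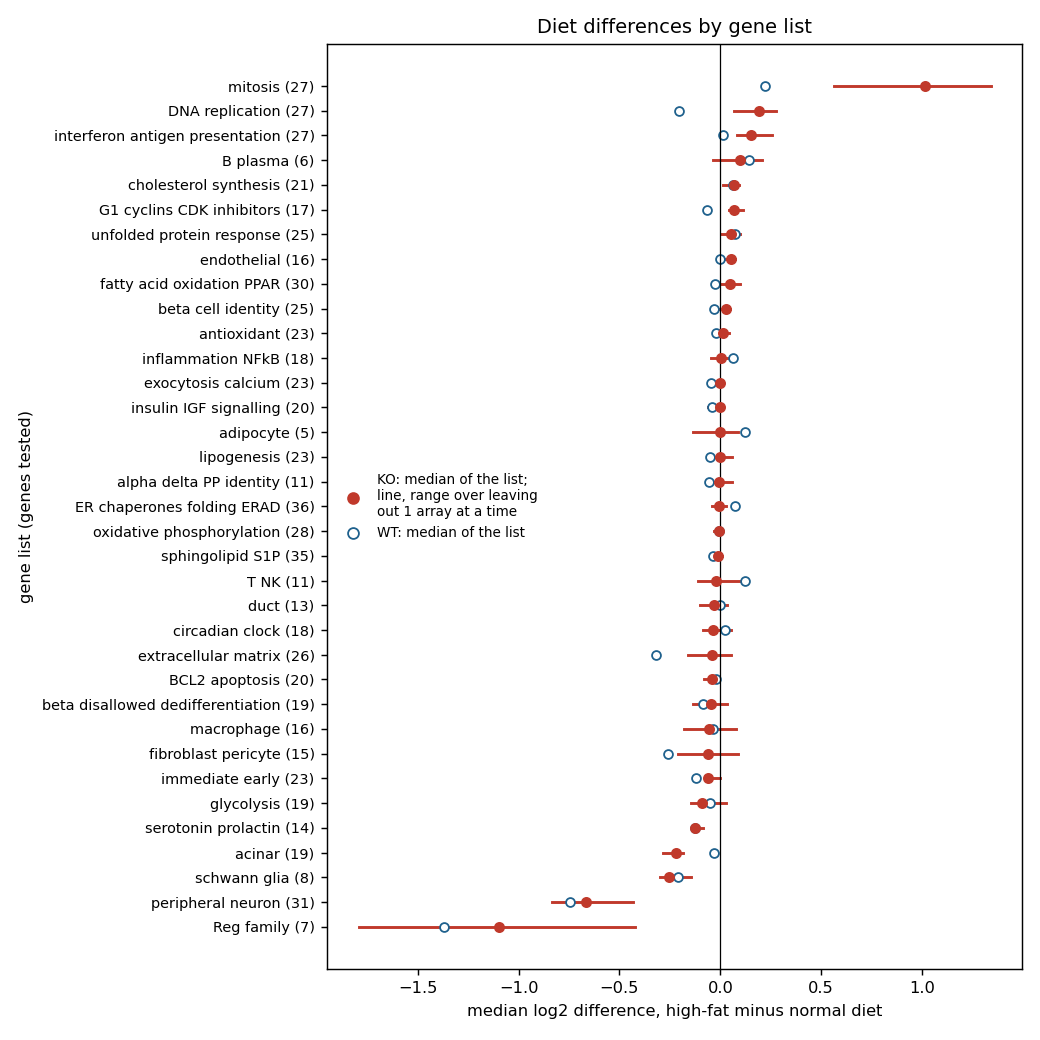
Median log2 difference, high-fat minus normal diet, of each gene list (rows, with the number of genes tested) in knockout mice (filled points, with lines for the range when 1 array at a time is left out) and wild type mice (open points). Mitosis lies at 1.01 in knockout and 0.22 in wild type mice, the Reg family at −1.10 and −1.37, and most lists near 0.

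Across the 15237 genes, the diet differences of knockout and wild type mice had a Pearson correlation of 0.418 and a Spearman correlation of 0.304, a description over genes, which are not independent replicates. The comparisons share no array. Of the 912 genes with an unadjusted p under 0.05 and no overlap in knockout mice, 685 (75.1%) had the same sign in wild type mice, against 59.9% of all genes. The median difference of those with the higher mean was 0.395 in knockout and 0.114 in wild type mice, and of those with the lower mean −0.359 in knockout and −0.116 in wild type mice.

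Genes that passed the test in wild type mice were also read in the knockout. In wild type mice 12 of the 15237 genes had an adjusted p under 0.05 (0.0788%), 3 with a higher and 9 with a lower mean. Of these 12, 11 had the same sign in the knockout and 7 had it with an unadjusted p under 0.05 (7.7% of all genes in either direction). Both tests use the same estimate of the spread of a gene, so these knockout p-values are not independent of the selection. All 12 differences were larger in wild type mice, the genotype in which they were selected. The genes named here were chosen after their values were seen. Slc10a6, a transporter of steroid sulfates, had 5.51, 5.99 and 6.01 in KO high-fat, against 5.20, 4.89 and 5.07 in KO normal, a log2 difference of 0.78 in knockout and 1.48 in wild type mice. Tesc, a calcium-binding protein, had 8.63, 8.52 and 8.48 in KO high-fat, against 9.22, 8.94 and 8.89 in KO normal, and −0.83 in wild type mice. Rasgrp1, a Ras activator, had 6.52, 7.11 and 6.6 in KO high-fat, against 7.75, 7.30 and 7.53 in KO normal, and −1.35 in wild type mice. None of these 3 genes overlapped between the knockout groups.

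The test of the difference between the diet responses called 0 of 15237 genes (percent called 0), with a smallest adjusted p of 0.722, and 758 genes had an unadjusted p under 0.05 (4.97%). Wnt5b, a secreted Wnt ligand, had 8.68, 8.73 and 8.92 in KO high-fat, against 8.0, 8.07 and 8.19 in KO normal, and 8.80, 8.31 and 8.14 in WT high-fat, against 8.78, 8.68 and 8.75 in WT normal. Its log2 difference was 0.69 in knockout and −0.32 in wild type mice, and the difference between them was 1.01 with an adjusted p of 0.722. A further probe set of Wnt5b gave 0.36 in knockout mice. Haus1, a subunit of the augmin complex of the spindle, had the smallest interaction p, and its difference was 0.08 in knockout and −0.63 in wild type mice. The integrin chain Itga10 had −0.17 in knockout and 0.61 in wild type mice, and the RNA methyltransferase Trdmt1 had 0.17 in knockout and −0.51 in wild type mice. In these 3 genes the wild type mice gave the larger difference.

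**Figure D5:**
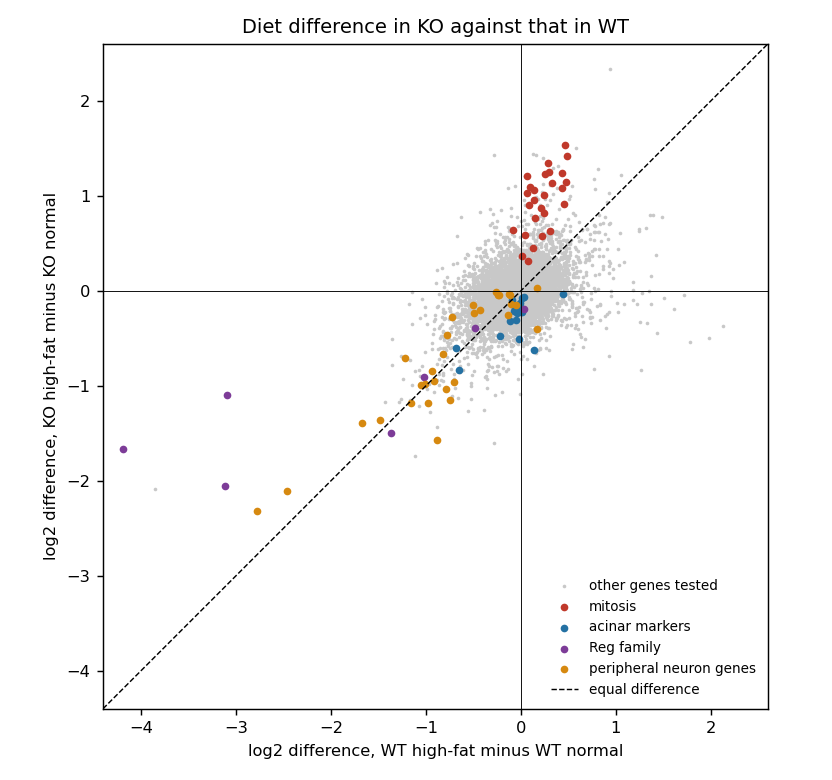
Log2 difference, high-fat minus normal diet, in knockout mice (y axis) against wild type mice (x axis) for the 15237 genes, 1 point per gene, with the mitosis genes, acinar markers, Reg family and peripheral neuron genes in colour and a dashed line where both differences are equal. The peripheral neuron and Reg genes farthest from 0 lie below 0 in both genotypes, whereas the mitosis genes lie above the dashed line, with no gene past the interaction test.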

How the data were processed

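Total RNA was extracted with Trizol and labelled as biotinylated cRNA from 4 µg, per the labels' protocols, and measured on 12 arrays, 3 per group. The values deposited by the authors are log2 RMA summaries of 45101 probe sets. RMA and Partek 6.6 are named in the submitters' processing notes, with no options or order of steps. RMA corrects background, equalises the distributions of the arrays and summarises probes, so it would hide a change shared by most genes. Array medians lay between 7.00 and 7.13, and 75.9% to 77.3% of probe sets were above a log2 value of 5. The number of arrays limits the precision, and an exact two-sided permutation test of 3 against 3 cannot go below 0.1.

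Of the probe sets, 64 were controls, 34945 named 1 gene, 932 several and 9160 none in the platform annotation. Gene names follow the annotation, of which 34741 matched GRCm38.p6 and 0 needed an update. Of 18193 genes, 2956 failed to exceed a log2 value of 5 on 3 or more arrays and were left out. Limma 3.58.1 in R 4.3.3 fitted 1 mean per group to the 12 arrays (8 residual degrees of freedom, 11.08 after moderation), and the diet difference in each genotype and the interaction were two-sided moderated tests, adjusted by Benjamini-Hochberg over all genes. The procedure was tested on simulated data. The members, gene lists and naming rule were chosen with earlier results of these data known. The rule named the 12 largest differences in each direction with an unadjusted p under 0.05 and no overlap, the 8 smallest p-values, up to 4 genes per list by p, the 6 smallest interaction p-values, and a fixed set of islet genes. Of the 184 genes this gives, 98 are named in the text. The other 86 are left out, list members with an unadjusted p of 0.05 or more apart from 1 gene that is not reported here. Deviations of knockout samples with the same number had correlations of 0.288, 0.384 and 0.138, against −0.393 to 0.103 for different numbers. In wild type samples the same number gave 0.0524, 0.0987 and −0.156, against −0.221 to 0.189. The labels' numbers are the only source of any pairing, and the labels do not say that they pair samples. The main fit does not use them. Promoters were searched in Python 3.11.15 and plots drawn with matplotlib 3.10.9.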

Additional observations from a re-analysis of the deposited data

Results flagged for a closer look

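In 3 of the 184 genes named by rule, and in 65 of all genes tested, the arrays of the diets did not overlap and moved in opposite directions in knockout and wild type mice. For Il1b, interleukin 1β, the log2 difference of high-fat minus normal diet was 0.41 in knockout and −0.40 in wild type mice, a difference between them of 0.81 (limma interaction, adjusted p = 0.836). For Ahsa2, a relative of the activators of the chaperone HSP90, it was −0.17 in knockout and 0.54 in wild type mice, a difference of −0.71 (adjusted p = 0.722). For Ndufb8, a subunit of respiratory complex I, it was 0.05 in knockout and −0.09 in wild type mice, a difference of 0.14 (adjusted p = 0.990). None of the 3 passed the interaction test after adjustment over all genes.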

How the results depend on the processing

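In knockout mice 0 genes had an adjusted p under 0.05 under every alternative run, and so did 0 genes in the interaction. The smallest adjusted p in any of the knockout fits was 0.071. With the replicate number as a block on the knockout arrays, 0 genes were called and the smallest adjusted p was 0.0854, for Klk1b11. The wild type count of 12 became 1 with only the 6 arrays of the genotype, 0 under either replicate block, 24 with a trended and robust variance, and 0 to 11 when 1 array was left out. Of 106 named genes, 100 kept the sign of the knockout difference under all alternatives. The 6 exceptions had differences near 0. Ins2 was −0.0231 after median centring, Sst was 0.0084 after cyclic loess and 0.0077 with array weights, Ucn3 was 0.0006 with array weights, Sgpp2 was −0.0037 after median centring, and Eif2s3y was 0.0664 as the mean of its probe sets and 0.0017 with array weights. Leaving out 1 array gave −0.0857 to 0.0849 for Ins2, −0.0026 to 0.12 for Gcg, −0.0404 to 0.0386 for Sst, −0.0629 to 0.0419 for Ucn3 −0.013 to 0.0736 for Sgpp2 and −0.1276 to 0.0204 for Eif2s3y. Of the 89 named genes with a difference over 0.2 in size, 26 moved by over 1.5 times when all probe sets of a gene were averaged, 10 without the third KO high-fat array, and 5 each without the second KO high-fat or the first KO normal array. The share of genes with a higher mean in KO high-fat was 48.1% as reported, 43.4% after cyclic loess and 39.6% after median centring. The mitosis median was 0.729 with array weights, which gave the third KO high-fat array a weight of 0.47. The replicate block on the knockout arrays gave 746 genes with a higher and 942 with a lower mean at an unadjusted p under 0.05, and median centring 384 and 761. List counts at that threshold moved too. Of the Schwann cell and glia markers, 3 were lower under that block against 0 as reported. With only the 6 knockout arrays in the fit, 5 interferon and antigen presentation genes were higher, and 4 dedifferentiation genes, 3 glycolytic genes and 3 glia markers were lower. In that fit 531 of the 15237 genes were higher and 625 lower. Of the acinar markers, 14 were lower with a trended and robust variance, 10 after median centring and 3 with the block on all 12 arrays, against 6 as reported. Of the unfolded protein response genes, 1 was higher after median centring or with the block on all 12 arrays, against 3 as reported. With array weights 16 mitosis genes were higher and 2 Reg genes lower, and with probe sets averaged 3 serotonin and prolactin genes were lower. Over all genes, 716 were higher and 783 lower with array weights, and 540 and 591 with a trended and robust variance. The counts were 477 and 616 with the block on all 12 arrays, and 621 and 652 with probe sets averaged. With 3 arrays per group, a median SE of 0.12 log2 units limits what single genes can show, and dim genes understate differences.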

Other observations

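Genes of the Y chromosome were bright on all knockout arrays. Kdm5d, a histone demethylase encoded there, had log2 values of 9.80, 9.65 and 9.87 in KO high-fat, against 10.08, 9.92 and 9.99 in KO normal. Eif2s3y, a translation initiation factor, had 12.46, 12.24 and 12.24 in KO high-fat, against 12.52, 12.29 and 12.30 in KO normal. Xist, the RNA of the inactive X chromosome, had 5.26, 5.32 and 5.01 in KO high-fat, against 6.19, 5.20 and 5.36 in KO normal, with the first KO normal array the highest of the 6, a log2 difference of −0.39, or −0.09 without that array. Of the 4 genes of this list tested, 0 had an unadjusted p under 0.05 between the diets. Few red blood cell and lymph node markers were measurable, with 2 and 4 tested, of which 0 had an unadjusted p under 0.05.

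Probe sets that name no gene or several were tested apart. Of 6737 above the filter, 710 had an unadjusted p under 0.05 in knockout mice, where 7.7% of the 15237 genes tested did. The smallest adjusted p of these probe sets in the limma fit was 0.25.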
